A study of Saccharomyces cerevisiae with 41 samples.

Results

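The general environmental stress genes described here are 37 budding yeast genes whose transcripts are known to rise under many unrelated stresses. They were chosen by name, with earlier results of these data known, and 1 probe set was found for 37 of the 37. The array represents 5449 budding yeast genes, of which 5337 passed the filter on low values, all 37 members among them. The members fall into 6 role groups. They are 12 enzymes of carbohydrate and redox metabolism, 5 genes of vacuolar proteolysis, its inhibitors and ubiquitin, 3 regulators of transcription and mRNA decay, 3 mitochondrial genes, 6 genes of the cell surface, membrane and endoplasmic reticulum, and 8 other or less well characterised genes.

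In budding yeast, heat, oxidants, osmotic shock, starvation and DNA damage all evoke a shared programme called the environmental stress response. Its best known activators, the zinc finger proteins Msn2 and Msn4, enter the nucleus under stress and bind a short promoter element, while protein kinase A, driven by Ras and cyclic AMP, keeps them in the cytoplasm when glucose is plentiful. Genes for ribosome biogenesis form the arm of the same response that falls, and many of the genes that rise are also known to rise as cells run out of glucose.

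Haploid yeast of the YPH499 background were grown in YPD at 30 °C to an OD600 of 1.0, given 100 J/m2 of UV-C in water, and returned to fresh YPD. The strains were mig3Δ, snf1Δ, rad23Δ, the double deletion snf1Δ rad23Δ, rad4Δ and wild type (WT). Snf1 is the kinase of the AMPK family in yeast, Mig3 a zinc finger repressor, and Rad4 and Rad23 the partners that recognise damage in nucleotide excision repair. Cells without UV, which had a mock treatment, and cells 30 and 60 min after UV were taken from the 6 strains, and cells at 15 min also from mig3Δ, snf1Δ and WT. Each of the 21 groups had 2 arrays, called biological replicates in the series' design text, except for mig3Δ at 15 min, which here had 1 array. No mock-treated cells at the later times were among the arrays, so in these comparisons UV and the transfer by way of water to new YPD cannot be told apart.

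Values are log2 array signals, and a difference is a difference of log2 group means ± SE from limma, fitted to all 41 arrays. A member rose or fell where its p-value, adjusted over the 5380 probe sets tested, was under 0.05. The labels do not say more of the replicates' origin, so these p-values measure the spread between the arrays at hand, and the number of arrays limits their precision. All comparisons with WT share the WT arrays, and all responses of a strain share its unirradiated arrays.

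Each deleted gene was near background in the strains that lack it, with SNF1 at 2.09 to 2.74 there and 10.69 to 11.92 elsewhere, and MIG3, RAD23 and RAD4 likewise. The arrays' median signal was 10.63 to 10.77. Replicate arrays lay furthest apart in WT at 60 min, where the SD between replicates over the 5380 tested probe sets was 0.529. It was at most 0.397 in any other group. An 18S ribosomal RNA control stood at 9.69 and 13.23 on the WT arrays at 60 min. The same control stood at 14.32 and 10.69 in mig3Δ at 30 min and at 10.82 and 14.62 in mig3Δ at 60 min. It also differed between groups that are compared. Before UV it was 13.71 and 12.47 in WT, 11.27 and 9.59 in snf1Δ, 10.39 and 9.59 in rad23Δ, and 12.15 and 9.86 in snf1Δ rad23Δ. At 15 min it was 14.6 and 14.8 in snf1Δ, and 14.7 and 14.7 in WT. What this meant for the results was not tested. The 3′ minus 5′ signal of SPT15, a control for RNA integrity, was 1.84 to 2.19 in rad23Δ, 1.96 to 2.22 in snf1Δ rad23Δ, 1.46 to 1.67 in rad4Δ and 1.18 to 1.44 in mig3Δ, against 1.27 to 1.45 in WT. In snf1Δ it was 1.54 and 1.69 before UV, above WT before UV (1.33 and 1.34). It was 1.68 and 1.52 in snf1Δ at 15 min, 1.54 and 1.63 at 30 min, and 1.30 and 1.26 at 60 min. The members' median difference from unirradiated snf1Δ was -0.53 at 15 min, -0.57 at 30 min and -0.68 at 60 min. The 3′ minus 5′ signal of ACT1 overlapped between all strains. YPH499 is a MATa strain, and its MATa marker sum was 15.3 to 16.1 on a log2 scale in all unirradiated groups. The sum of 4 MATalpha markers was 10.5 to 11.0 in unirradiated rad23Δ, 9.74 to 10.0 in snf1Δ, 9.84 to 10.2 in snf1Δ rad23Δ, 8.70 to 8.92 in rad4Δ and 8.71 to 9.38 in mig3Δ, against 8.22 to 8.63 in WT. The alpha pheromone gene MF(ALPHA)1 read 2.32 and 4.40 in unirradiated rad23Δ, 2.1 and 2.13 in WT, and 2.12 to 2.13 in the other unirradiated strains. The MATalpha sum also differed between times within a strain. It was 9.51 to 9.67 in WT at 30 min, 10.2 to 10.3 in rad4Δ at 60 min and 9.69 to 9.74 in snf1Δ at 60 min. In these bulk samples, fewer cells of a kind and less RNA per cell cannot be told apart, and the part of RNA integrity or of such cells in the results was not tested.

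Over the 21 groups the members moved more than most genes. Their group means spanned a median range of 3.31, against 1.50 over all tested probe sets. The eisosome membrane protein gene YNL194C spanned 9.46, the stationary phase gene SPG4 8.40, the membrane protein gene PHM7 7.89 and the reticulon gene RTN2 7.75. Some members were under 4, the level used by the filter on low values. They numbered 4 in unirradiated rad4Δ, 3 in rad4Δ at 30 min, 2 in WT at 30 min and 1 in unirradiated WT. Examples are group means of XBP1 (3.49) and MOH1 (3.79) in unirradiated rad4Δ, and of TKL2 (2.83) in WT at 60 min. Differences that rest on such means are uncertain in size. HOR7, a gene responsive to high osmolarity, stayed near the top of the scale with group means of 15.0 to 15.5, a range of 0.49, and the DNA damage responsive gene DDR48 had a range of 0.83. As a description over 21 group means that share their arrays, the regulator DCS2, related to the scavenger decapping enzyme, followed the median of the other members most closely (r = 0.943), then the glycerol dehydrogenase gene GCY1 (r = 0.939) and RTN2 (r = 0.912). DDR48 (r = 0.394), the aldose reductase gene GRE3 (r = 0.516) and the proteinase B inhibitor gene PBI2 (r = 0.562) followed it least.

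**Figure D1:**
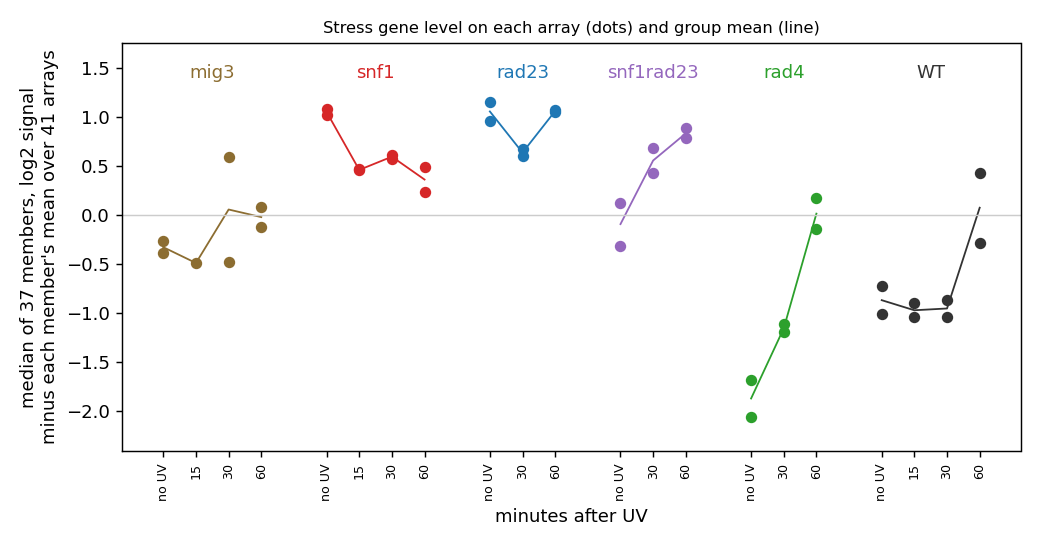
The median of the 37 members on each of the 41 arrays, as log2 signal minus each member's mean over all arrays, with the strains from left to right as mig3, snf1, rad23, snf1rad23 (the double deletion), rad4 and WT, and time after UV within each strain. Unirradiated snf1 and rad23 arrays sit between 0.96 and 1.15, unirradiated rad4 arrays at -2.06 and -1.68 and unirradiated WT arrays at -0.73 and -1.01, while at 60 min every array lies between -0.28 and 1.07.

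Before UV, the stress genes stood far apart between strains. Of the 37 members, 34 were higher in snf1Δ than in WT and none was lower, where 21.6% of all probe sets were higher and 23.6% lower. In rad23Δ, 33 were higher and none lower, where 22.2% of all were higher and 25.4% lower. The members' median difference from WT was 1.81 in snf1Δ and 1.87 in rad23Δ, against -0.06 over all probe sets in snf1Δ. In rad4Δ the members lay the other way, with 13 lower and none higher, where 4% of all were lower and 2.75% higher. In each of snf1Δ and rad23Δ, 27 of the calls held in every alternative and without any 1 array.

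The carbohydrate and redox enzymes gave 11 higher of 12 in snf1Δ and 11 of 12 in rad23Δ. TKL2, the minor transketolase of the pentose phosphate pathway, read 8.72 and 9.07 in snf1Δ, against 4.66 and 2.93 in WT. It read 7.89 and 8.68 in rad23Δ. Neither deletion overlapped WT, and TKL2 rose by 5.10 ± 0.55 in snf1Δ (adjusted p = 1.7e-07) and by 4.49 ± 0.55 in rad23Δ (adjusted p = 1.04e-06). With 1 WT array under 4, these sizes are uncertain. NQM1, a second transaldolase, read 11.43 and 11.41 in snf1Δ, 12.07 and 12.16 in rad23Δ, and 8.98 and 8.77 in WT. The replicates of NQM1 were tight beside its rise of 2.54 ± 0.17 in snf1Δ (adjusted p = 1.29e-10) and of 3.24 ± 0.17 in rad23Δ (adjusted p = 1.53e-12). GND2, a 6-phosphogluconate dehydrogenase, rose less than these 2, by 2.01 ± 0.36 in snf1Δ and 2.42 ± 0.36 in rad23Δ. ALD3, an aldehyde dehydrogenase gene, rose by 3.58 ± 0.34 in snf1Δ (adjusted p = 2.22e-08) and by 0.95 ± 0.34 in rad23Δ. The call in rad23Δ was lost with quantile normalization and without any 1 of its 4 arrays, with adjusted p up to 0.128. ALD3 is nearly identical to its neighbour ALD2, so its signal is uncertain. The exceptions were the hexokinase gene HXK1 in snf1Δ, at 0.57 ± 0.28 (adjusted p = 0.11), and GRE3 in rad23Δ, at 0.40 ± 0.26 (adjusted p = 0.21).

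Genes of vacuolar proteolysis, its inhibitors and ubiquitin were higher in 5 of 5 cases in snf1Δ, rad23Δ and snf1Δ rad23Δ alike. PRB1, the vacuolar proteinase B, read 13.42 and 13.51 in snf1Δ, against 12.02 and 11.95 in WT, a rise of 1.48 ± 0.25 (adjusted p = 5.21e-05). TFS1, an inhibitor of carboxypeptidase Y, rose by 1.81 ± 0.33 in snf1Δ and by 2.58 ± 0.33 in rad23Δ. The polyubiquitin gene UBI4 rose by 1.06 ± 0.23 in snf1Δ (adjusted p = 0.000638) and by 0.97 ± 0.23 in rad23Δ (adjusted p = 0.00147). UBI4 may share probe sequence with the other ubiquitin genes, and its signal is uncertain for that reason.

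All 3 regulators were higher in snf1Δ and in rad23Δ. XBP1, a transcriptional repressor known from stress and quiescence, read 10.98 and 10.83 in snf1Δ, 10.37 and 10.54 in rad23Δ, and 7.40 and 6.42 in WT. It read 2.73 and 4.25 in rad4Δ, below both WT arrays. XBP1 rose by 4.0 ± 0.77 in snf1Δ (adjusted p = 0.000191) and by 3.55 ± 0.77 in rad23Δ (adjusted p = 0.000643), and it fell by 3.41 ± 0.77 in rad4Δ (adjusted p = 0.00704). That call was lost without replicate 1 of unirradiated rad4Δ (adjusted p = 0.137) or of unirradiated WT. The zinc finger factor gene USV1 rose by 1.83 ± 0.34 in snf1Δ and by 2.88 ± 0.34 in rad23Δ (adjusted p = 6.1e-07).

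The 3 mitochondrial genes also rose in both strains, with FMP16 at 3.23 ± 0.52 in snf1Δ and 2.85 ± 0.52 in rad23Δ. CYC7, cytochrome c isoform 2, rose by 1.49 ± 0.33 in snf1Δ and by 1.47 ± 0.33 in rad23Δ. Of the 6 surface, membrane and reticulum genes, 5 rose in snf1Δ and 6 in rad23Δ. PHM7 read 10.33 and 10.15 in snf1Δ and 6.42 and 5.46 in WT, a rise of 4.30 ± 0.49 (adjusted p = 3.1e-07). RTN2 read 11.93 and 11.85 in snf1Δ, 4.76 and 4.75 in rad4Δ, and 8.42 and 7.87 in WT. No array of these strains overlapped WT for RTN2, which rose by 3.75 ± 0.60 in snf1Δ and by 3.30 ± 0.60 in rad23Δ, and fell by 3.39 ± 0.60 in rad4Δ (adjusted p = 0.000897).

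Among the other members, MOH1, a gene of stationary phase survival, had the largest difference in both strains. It read 10.35 and 10.44 in snf1Δ, 9.84 and 9.95 in rad23Δ, 10.64 and 10.17 in snf1Δ rad23Δ, 7.75 and 7.77 in mig3Δ, 3.74 and 3.84 in rad4Δ, and 4.48 and 4.03 in WT. MOH1 rose by 6.14 ± 0.49 in snf1Δ (adjusted p = 1.45e-09) and by 5.64 ± 0.49 in rad23Δ (adjusted p = 5.22e-09). SIP18, a hydrophilin tied to desiccation tolerance, rose by 3.32 ± 0.53 in snf1Δ and by 3.36 ± 0.53 in rad23Δ. TMA10, a ribosome-associated protein gene, did not pass the test in either strain, at -0.22 ± 0.45 in snf1Δ and 0.64 ± 0.45 in rad23Δ.

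**Figure D2:**
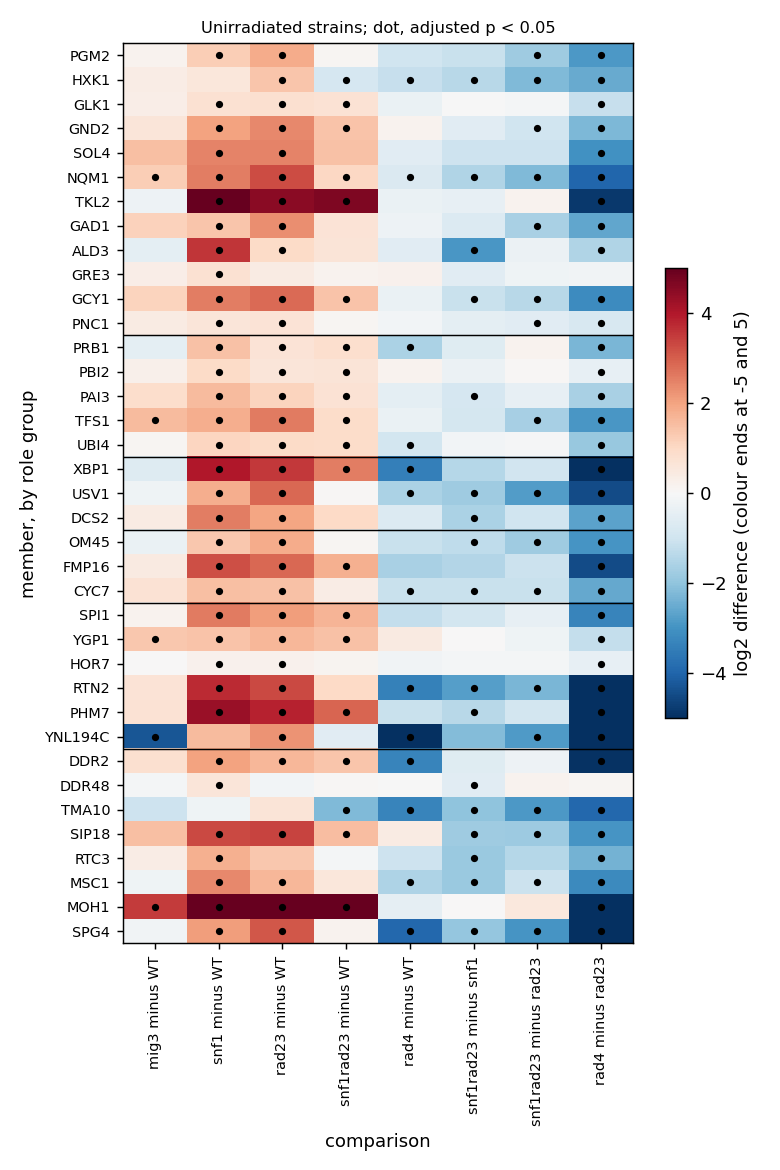
Heatmap of log2 differences between unirradiated strains, with 8 comparisons as columns and the 37 members as labelled lines grouped by role, and a dot for an adjusted p under 0.05. The snf1 and rad23 columns hold 34 and 33 dots on the higher side, and the column of rad4 minus rad23 holds 35 on the lower side.

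The genes that fell most in rad4Δ came from several role groups. YNL194C read 2.85 and 3.98 in rad4Δ, against 10.50 and 9.71 in WT, and fell by 6.69 ± 0.82 (adjusted p = 1.07e-05). Its rad4Δ arrays were under 4, so the size of that fall is uncertain. SPG4 read 4.33 and 5.87 in rad4Δ and 9.05 and 8.99 in WT, and fell by 3.92 ± 0.58 (adjusted p = 0.000102). DDR2, which responds to many stresses, read 8.93 and 9.72 in rad4Δ, against 12.84 and 12.38 in WT. It fell by 3.28 ± 0.39 (adjusted p = 8.09e-06). TMA10 fell by 3.29 ± 0.45 (adjusted p = 4.27e-05) and PRB1 by 1.57 ± 0.25 (adjusted p = 0.000263). YNL194C, SPG4, RTN2, TMA10, DDR2 and PRB1 are the 6 whose calls held in every alternative and without any 1 array. The other 7 included MSC1, HXK1, CYC7, UBI4 and NQM1, and the count was 6 without replicate 1 of either WT or rad4Δ, but 22 with array weights.

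Because Rad4 and Rad23 act together in damage recognition, unirradiated rad4Δ was also set against rad23Δ directly. Of the 37 members, 35 were lower in rad4Δ and none higher, where 22.5% of all probe sets were lower and 30.8% higher, and the members' median difference was -2.92. The exceptions were GRE3 at -0.19 ± 0.26 and DDR48 at 0.12 ± 0.13. YNL194C fell by 8.95 ± 0.82 (adjusted p = 7.94e-09), SPG4 by 7.03 ± 0.58 (adjusted p = 1.24e-09) and XBP1 by 6.96 ± 0.77 (adjusted p = 1.29e-07). The sizes for YNL194C and XBP1 are uncertain, given their low rad4Δ values. No array of rad4Δ overlapped rad23Δ for these genes, and 34 of the 35 calls held in every alternative and without any 1 array, PBI2 being the one that did not.

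The double deletion snf1Δ rad23Δ had fewer members raised than either single deletion. It had 18 higher and 2 lower than WT, where 17.3% of all probe sets were higher and 21.4% lower, and the members' median difference was 0.73. The calls numbered 20 in all, 11 without replicate 2 of unirradiated WT and 13 without replicate 2 of unirradiated snf1Δ rad23Δ, and 9 of them held in every alternative and without any 1 array. MOH1 rose by 6.16 ± 0.49 (adjusted p = 2.04e-09), TKL2 by 4.68 ± 0.55 (adjusted p = 1.07e-06) and PHM7 by 2.92 ± 0.49 (adjusted p = 7.03e-05), beside the rises of MOH1 and TKL2 in the single deletions given earlier. TMA10 read 10.88 and 11.49 in snf1Δ rad23Δ, against 13.46 and 13.35 in WT, and fell by 2.22 ± 0.45 (adjusted p = 0.000525). HXK1 also fell, by 0.83 ± 0.28, a call lost when the fit held the arrays of both strains alone.

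Set directly against the single deletions, snf1Δ rad23Δ had 17 members lower and none higher than snf1Δ, where 11.6% of all probe sets were lower and 9.42% higher. It also had 17 lower and none higher than rad23Δ, where 14.4% were lower and 11% higher. The median member differed by -1.11 from snf1Δ and by -1.01 from rad23Δ. NQM1 read 9.83 and 9.99 in snf1Δ rad23Δ, against 11.43 and 11.41 in snf1Δ and 12.07 and 12.16 in rad23Δ. It fell by 1.51 ± 0.17 relative to snf1Δ (adjusted p = 4.59e-06) and by 2.21 ± 0.17 relative to rad23Δ (adjusted p = 1.54e-09). USV1 read 8.12 and 8.96 in snf1Δ rad23Δ, 10.35 and 10.25 in snf1Δ and 11.34 and 11.36 in rad23Δ. It fell by 1.76 ± 0.34 relative to snf1Δ (adjusted p = 0.000977) and by 2.81 ± 0.34 relative to rad23Δ (adjusted p = 1.65e-06). HXK1, ALD3 and MSC1 are the others that fell relative to snf1Δ in every alternative and without any 1 array. Relative to rad23Δ these were SPG4, TMA10, HXK1, PGM2, OM45 and TFS1, beside NQM1 and USV1. The count against snf1Δ was 5 without replicate 1 of snf1Δ rad23Δ, 8 without either snf1Δ array, 26 with array weights and 29 with the arrays of both strains alone. Against rad23Δ it was 8 without replicate 1 of snf1Δ rad23Δ and 10 without replicate 2 of rad23Δ.

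In mig3Δ, 4 members were higher and 1 lower than in WT, where 3.27% of all probe sets were higher and 5.04% lower. YGP1, a secreted glycoprotein of the cell wall, read 14.63 and 14.57 in mig3Δ and 13.35 and 13.12 in WT, a rise of 1.37 ± 0.16 (adjusted p = 6.62e-06). NQM1 read 10.10 and 10.14 in mig3Δ and 8.98 and 8.77 in WT, a rise of 1.24 ± 0.17 (adjusted p = 6.72e-05). These are the calls that held throughout. MOH1 rose by 3.51 ± 0.49, TFS1 by 1.57 ± 0.33, and YNL194C fell by 4.28 ± 0.82, but these 3 were lost with the arrays of both strains alone, and TFS1 and YNL194C also without replicate 2 of unirradiated mig3Δ. The count was 3 without that array and 12 with array weights.

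Other lists were read beside the members. Of 25 further environmental stress genes, such as heat shock proteins, catalase and storage carbohydrate enzymes, 16 were higher and none lower in snf1Δ (median 0.99), and 12 were higher and none lower in rad23Δ (median 0.84). Over all probe sets, 21.6% were higher and 23.6% lower in snf1Δ, and 22.2% higher and 25.4% lower in rad23Δ. In rad4Δ none was higher and 5 were lower, where 2.75% of all were higher and 4% lower. HSP12, a small membrane-bound heat shock protein gene, rose by 2.99 ± 0.36 in snf1Δ (adjusted p = 6.07e-07) and by 3.11 ± 0.36 in rad23Δ (adjusted p = 3.58e-07). The cytosolic catalase gene CTT1 went different ways relative to WT, rising by 1.55 ± 0.39 in snf1Δ (adjusted p = 0.00219), at -0.09 ± 0.39 in rad23Δ (adjusted p = 0.865), and falling by 3.15 ± 0.39 in rad4Δ (adjusted p = 1.07e-05) and by 2.50 ± 0.39 in mig3Δ (adjusted p = 0.000206).

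Ribosome biogenesis genes lay the opposite way. Of 20, none was higher and 14 were lower in snf1Δ (median -0.67), and none was higher and 10 were lower in rad23Δ (median -0.40). Over all probe sets 23.6% were lower in snf1Δ and 25.4% in rad23Δ. None passed the test in rad4Δ, where 2.75% of all were higher and 4% lower, or in mig3Δ, where 3.27% were higher and 5.04% lower. Relative to rad23Δ, 10 of the 20 were higher in rad4Δ and none lower, where 30.8% of all were higher and 22.5% lower.

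The stress signalling genes tested numbered 26. In snf1Δ 9 were higher and 7 lower, where 21.6% of all probe sets were higher and 23.6% lower, so the share called lower was near that of all. In rad23Δ 12 were higher and 5 lower, where 22.2% of all were higher and 25.4% lower. The transcript of the activator MSN4 rose by 1.10 ± 0.22 in snf1Δ (adjusted p = 0.00024) and by 1.98 ± 0.22 in rad23Δ (adjusted p = 1.96e-07), while that of its partner MSN2 fell by 0.35 ± 0.12 in snf1Δ (adjusted p = 0.0221) and by 0.31 ± 0.12 in rad23Δ (adjusted p = 0.0421). RIM15, a kinase of the starvation programme that protein kinase A restrains, rose by 2.04 ± 0.19 in snf1Δ (adjusted p = 1.49e-08) and by 1.56 ± 0.19 in rad23Δ (adjusted p = 6.82e-07). TPK3, a catalytic subunit of protein kinase A, fell by 1.33 ± 0.25 in snf1Δ (adjusted p = 0.000132) and by 1.20 ± 0.25 in rad23Δ (adjusted p = 0.000394). These 4 are examples from a list called in both directions, whose other called genes are not named, and a shift of the pathway was not tested. In rad4Δ these 4 did not pass the test, with MSN4 at -0.54 ± 0.22 (adjusted p = 0.15).

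Many members have a paralog, and the members spanned more of the scale. In 12 of 12 pairs, with YNL194C counted against both SUR7 and FMP45, the member's group means spanned the wider range. Some paralogs stood near the top of the scale, such as TKL1 at 14.93 and RTN1 at 14.46 in unirradiated WT. Whether that narrowed their range was not tested. TKL2 spanned 6.92 and its paralog TKL1 0.73, NQM1 4.10 and TAL1 0.55, RTN2 7.75 and RTN1 0.86, and HXK1 3.50 and HXK2 0.80. Of the 12 paralogs, 3 were higher and 1 lower in snf1Δ before UV. Over all probe sets 21.6% were higher and 23.6% lower, so the share called higher was near that of all. FMP45, another eisosome-associated gene, rose by 3.11 ± 1.01 (adjusted p = 0.0148), more than YNL194C at 1.59, and ALD2 rose by 1.43 ± 0.23 (adjusted p = 3.09e-05), beside ALD3 at 3.58. SOL3 rose by 0.29 ± 0.09 (adjusted p = 0.0131) and SUR7 fell by 0.77 ± 0.22 (adjusted p = 0.00574). The other 8 did not pass the test, among them TKL1 at 0.02 ± 0.10 (adjusted p = 0.879) and RTN1 at 0.13 ± 0.10 (adjusted p = 0.293). Over all groups YNL194C spanned 9.46 and FMP45 5.97. Among the members, DDR48, PAI3 and SIP18 lie next to each other in the genome.

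In WT after UV, members were called at 30 and 60 min. At 15 min none passed limma's test in WT, where 5.91% of all probe sets did. At an unadjusted p under 0.05 there were 4, with array weights 5, and 1 either with the WT arrays alone or without replicate 2 at 15 min. An unadjusted p under 0.05 was found for 927 of all 5380 probe sets in WT at 15 min. At 30 min 3 members were higher and 6 lower, where 12.6% of all were higher and 12.6% lower, and the median member stood at 0.09. PHM7 read 2.55 and 2.15 at 30 min and 6.42 and 5.46 before UV, and fell by 3.59 ± 0.49 (adjusted p = 1.66e-05). Its level at 30 min was near background, so the fall is a limit. YNL194C read 6.56 and 5.03 at 30 min and 10.50 and 9.71 before UV, and fell by 4.31 ± 0.82 (adjusted p = 0.00055). DDR2 read 10.87 and 10.76 at 30 min and 12.84 and 12.38 before, and fell by 1.79 ± 0.39 (adjusted p = 0.00166). None of these 3 overlapped between times, and they are the calls that held throughout. The count of 9 was 5 without replicate 2 at 30 min and 17 with array weights.

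At 60 min 15 members were higher and 2 lower than in unirradiated WT, where 12.1% of all were higher and 18.5% lower, and the median member stood at 0.73. TFS1 read 13.17 and 13.41 at 60 min and 11.36 and 11.23 before UV. GCY1 read 11.81 and 12.59 at 60 min and 10.35 and 10.23 before UV. TFS1 rose by 1.99 ± 0.33 (adjusted p = 0.000111) and GCY1 by 1.91 ± 0.37 (adjusted p = 0.000565), and only these calls held in every alternative and without any 1 array. SOL4, a 6-phosphogluconolactonase gene, rose by 2.36 ± 0.60, MOH1 by 2.54 ± 0.49 and SIP18 by 1.94 ± 0.53, all lost with array weights. SPG4 fell by 1.82 ± 0.58, and YNL194C fell by 2.27 ± 0.82 while its arrays at 60 min read 6.38 and 9.29. The 17 calls were 4 with array weights, which gave each WT array at 60 min a weight of 0.133, 10 with the WT arrays alone, and 11, of which 8 higher, without replicate 2 at 60 min.

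**Figure D3:**
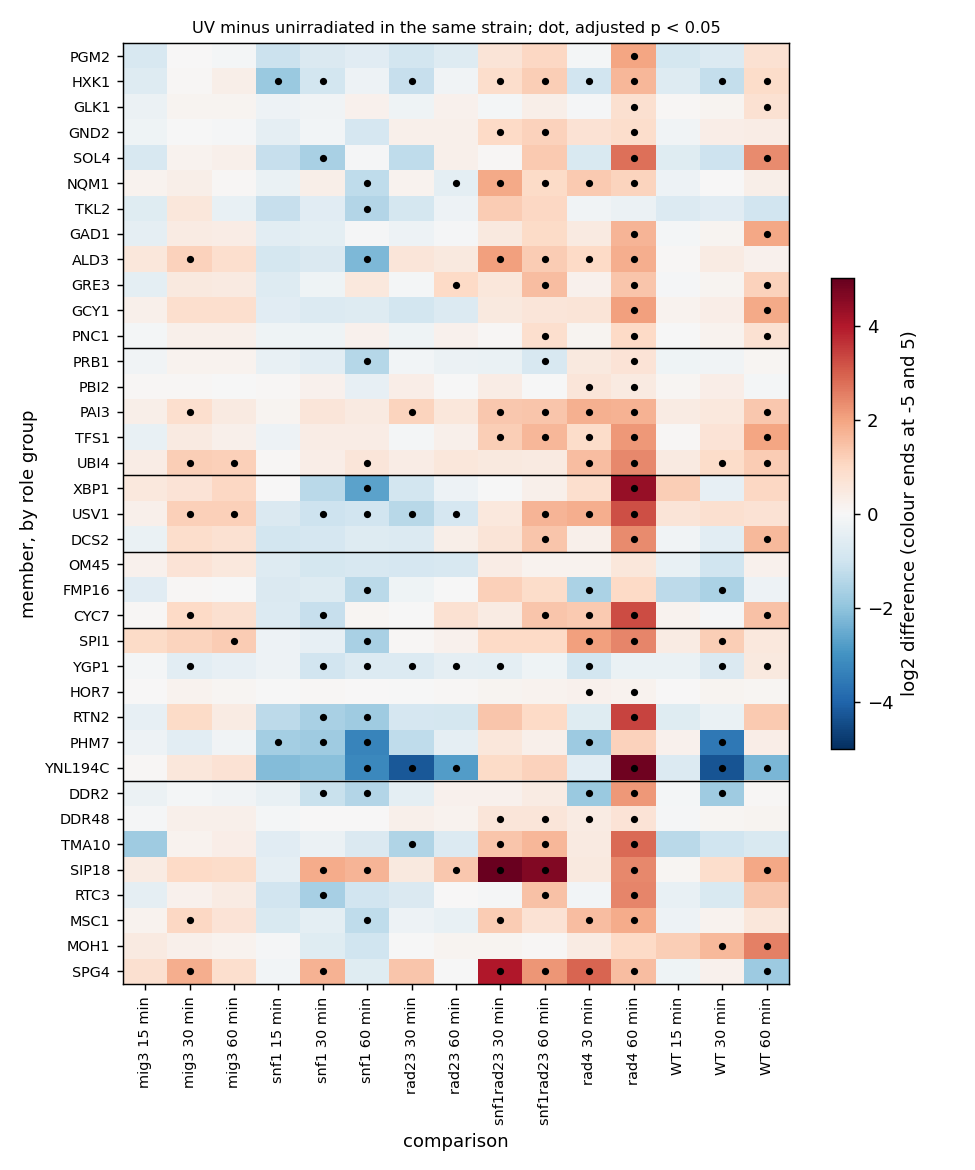
Heatmap of log2 differences after UV minus unirradiated, with the 15 times and strains as columns (WT last) and the 37 members as labelled lines grouped by role, colours ending at -5 and 5, and dots for an adjusted p under 0.05. The rad4 column at 60 min holds 31 dots on the higher side, and the snf1 column at 60 min holds 14 on the lower side and 2 on the higher.

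Cells of rad4Δ, which stood lowest before UV, gained most. At 30 min 13 members were higher and 5 lower, where 14.5% of all probe sets were higher and 18% lower. At 60 min 31 were higher and none lower, where 26.9% of all were higher and 26.9% lower, and the median member stood at 1.74, against 0.00 over all probe sets. By role, 11 of 12 carbohydrate and redox enzymes, 5 of 5 proteolysis and ubiquitin genes, 3 of 3 regulators, 1 of 3 mitochondrial genes, 4 of 6 surface and membrane genes and 7 of 8 others rose. Of the 31 calls 26 held in every alternative and without any 1 array.

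XBP1 read 7.48 and 8.24 in rad4Δ at 60 min, 3.54 and 5.15 at 30 min, and 2.73 and 4.25 before UV. It rose by 4.37 ± 0.77 at 60 min (adjusted p = 5.37e-05), with no overlap between those arrays. YNL194C read 7.62 and 8.97 at 60 min, 2.84 and 2.97 at 30 min and 2.85 and 3.98 before UV, a rise of 4.88 ± 0.82 at 60 min (adjusted p = 3.25e-05). The size of this rise is uncertain, since the arrays before UV were under 4. UBI4 was early as well as late. It read 14.60 and 14.71 at 60 min, 14.02 and 13.51 at 30 min and 12.33 and 12.16 before UV, and rose by 1.52 ± 0.23 at 30 min (adjusted p = 2.87e-05) and by 2.41 ± 0.23 at 60 min (adjusted p = 2.23e-08). USV1 rose by 1.81 ± 0.34 at 30 min (adjusted p = 0.000319) and by 3.22 ± 0.34 at 60 min (adjusted p = 9.62e-08). CYC7 rose by 3.26 ± 0.33 (adjusted p = 4.75e-08) and TMA10 by 2.84 ± 0.45 (adjusted p = 1.6e-05) at 60 min. TKL2 read 2.94 and 3.43 at 60 min, at -0.28 ± 0.55 (adjusted p = 0.7).

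Some members dipped in rad4Δ before they rose. DDR2 read 7.84 and 7.12 at 30 min and 11.05 and 11.97 at 60 min, against 8.93 and 9.72 before UV. It fell by 1.85 ± 0.39 at 30 min (adjusted p = 0.000881) and rose by 2.18 ± 0.39 at 60 min (adjusted p = 6.42e-05). YGP1 fell by 0.92 ± 0.16 at 30 min (adjusted p = 0.000125) and stood at -0.33 ± 0.16 at 60 min (adjusted p = 0.087). The calls at 30 min numbered 10 without replicate 1 of unirradiated rad4Δ.

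In snf1Δ, where the members were already high, most calls after UV were falls. At 15 min none was higher and 2 lower, where 3.81% of all were higher and 6.06% lower. HXK1 read 11.92 and 11.99 at 15 min and 13.80 and 13.83 before UV, and fell by 1.86 ± 0.28 (adjusted p = 0.000156), and PHM7 fell too. At 30 min 2 were higher and 9 lower, where 15.7% of all were higher and 15.3% lower. At 60 min 2 were higher and 14 lower, where 22.4% were higher and 21% lower, and the median member stood at -0.68. Of the 6 surface and membrane genes 5 fell at 60 min, of which PHM7 read 7.14 and 6.78 at 60 min and 10.33 and 10.15 before UV, and fell by 3.28 ± 0.49 (adjusted p = 1.38e-05). SPI1, a cell wall protein gene, fell by 1.62 ± 0.43 (adjusted p = 0.004), ALD3 by 2.24 ± 0.34 (adjusted p = 1.7e-05), PRB1 by 1.44 ± 0.25 (adjusted p = 9.57e-05) and NQM1 by 1.26 ± 0.17 (adjusted p = 5.87e-06). SIP18 went against these. It read 9.88 and 8.50 at 60 min and 7.31 and 7.69 before UV, a rise of 1.69 ± 0.53 (adjusted p = 0.0133). The call was lost without replicate 1 at 60 min (adjusted p = 0.226) and without replicate 1 before UV.

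The replicates of snf1Δ lay close together, and these counts depend on whose spread is used. With the snf1Δ arrays alone the calls numbered 26 at 15 min, 32 at 30 min and 30 at 60 min. Of these, 26, 26 and 24 were falls. The share of all probe sets called in that fit is not given here, so these counts are not read as a result about the members. At 15 min any 1 array left out gave 1 call, and at 30 min 1 to 4. At 60 min the calls numbered 8 without replicate 2 at 60 min and 10 without replicate 1 of unirradiated snf1Δ.

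In rad23Δ 1 member was higher and 5 lower at 30 min, where 15.4% of all were higher and 13.1% lower. At 60 min 2 were higher and 4 lower, where 23.8% were higher and 19.3% lower, and the median member stood at -0.00343. YNL194C read 8.18 and 8.05 at 30 min, 9.84 and 9.32 at 60 min, and 12.47 and 12.27 before UV. It fell by 4.25 ± 0.82 at 30 min (adjusted p = 0.000563) with no overlap between arrays. HXK1 fell by 1.15 ± 0.28 (adjusted p = 0.00454) and USV1 by 1.37 ± 0.34 (adjusted p = 0.00471) at 30 min. GRE3 read 13.67 and 13.83 at 60 min and 12.76 and 12.75 before UV, a rise of 0.99 ± 0.26 (adjusted p = 0.00415), the call at 60 min that held throughout. The other calls at 60 min did not, since leaving out 1 array gave 1 to 3 calls, and with the rad23Δ arrays alone the calls numbered 20 at 30 min and 15 at 60 min.

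The double deletion snf1Δ rad23Δ, which began lower than either single deletion, gained members after UV. At 30 min 11 were higher and 1 lower, where 19.4% of all were higher and 16.1% lower. At 60 min 16 were higher and 1 lower, where 27.2% were higher and 25.6% lower, and the median member stood at 1.00. SIP18 read 9.88 and 11.47 at 30 min, 10.13 and 10.63 at 60 min, and 5.44 and 6.03 before UV. It rose by 4.94 ± 0.53 at 30 min (adjusted p = 2.96e-07) and by 4.65 ± 0.53 at 60 min (adjusted p = 3.97e-07). Its arrays before UV lay below those at both later times. SPG4 read 12.78 and 13.57 at 30 min and 8.88 and 9.48 before UV, a rise of 4.0 ± 0.58 (adjusted p = 1.5e-05). NQM1 rose by 1.90 ± 0.17 at 30 min (adjusted p = 3.12e-08) and by 0.96 ± 0.17 at 60 min (adjusted p = 9.26e-05). PAI3, the proteinase A inhibitor, rose by 1.34 ± 0.27 at 30 min, while PRB1 fell by 0.80 ± 0.25 at 60 min, a call lost without replicate 2 at 60 min (adjusted p = 0.0856) or before UV. The calls at 30 min numbered 5 without replicate 2 at 30 min and 6 without replicate 1 before UV.

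In mig3Δ no call after UV held in every alternative and without any 1 array. At 15 min, with 1 array, none passed limma's test, where 0.743% of all probe sets did. At an unadjusted p under 0.05 there was 1, and with array weights 2. At 30 min 7 were higher and 1 lower, where 14.1% of all were higher and 9.44% lower, and at 60 min 3 were higher and none lower, where 10.3% were higher and 6.75% lower. UBI4 read 14.25 and 14.71 at 30 min, 14.66 and 14.24 at 60 min, and 13.14 and 13.38 before UV. It rose by 1.22 ± 0.23 at 30 min (adjusted p = 0.00107) and by 1.19 ± 0.23 at 60 min (adjusted p = 0.00186), both lost with the mig3Δ arrays alone, which gave no call at either time. The calls at 30 min numbered 24 without replicate 1 at 30 min, 5 without replicate 2, and 1 without either unirradiated array. Those at 60 min numbered 1 without either unirradiated array.

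**Figure D4:**
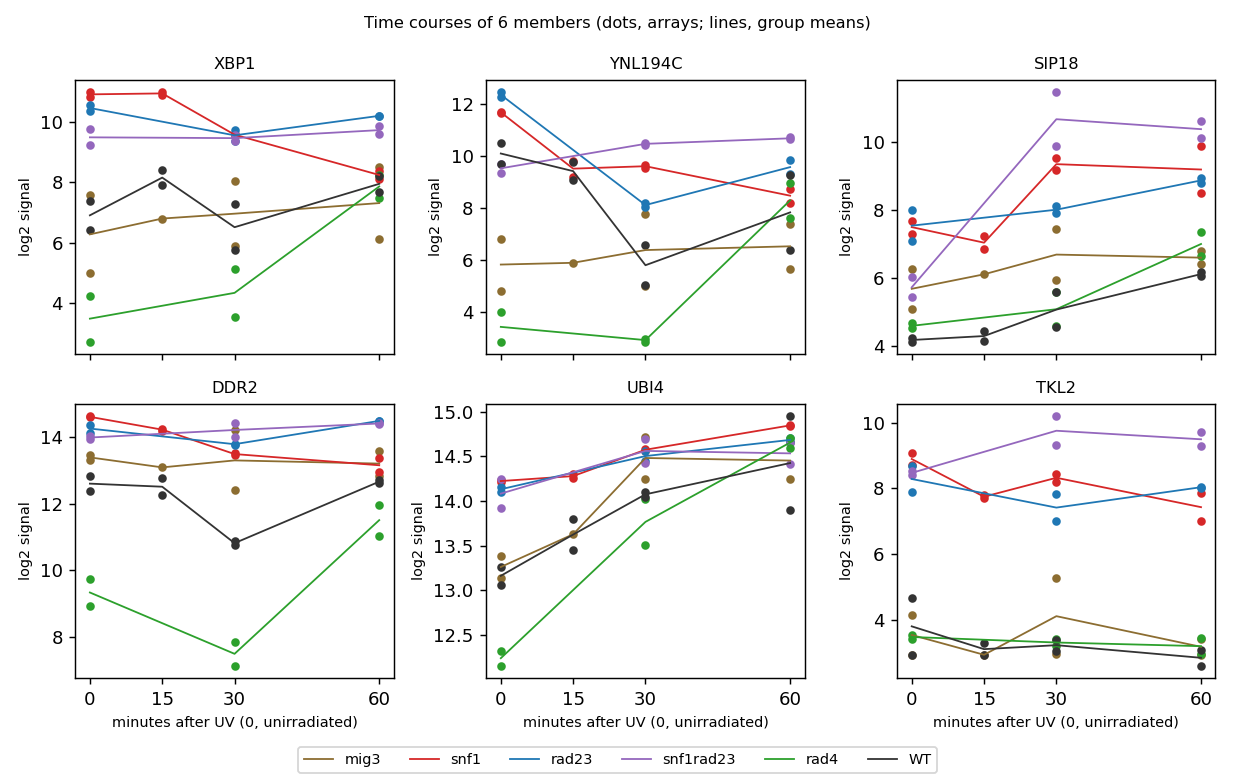
Log2 signal of XBP1, YNL194C, SIP18, DDR2, UBI4 and TKL2 against minutes after UV (0, unirradiated), with dots for arrays and lines through group means, coloured by strain (mig3, snf1, rad23, snf1rad23, rad4, WT). At 60 min XBP1 reads 7.48 and 8.24 in rad4 and 7.69 and 8.21 in WT, having read 2.73 and 4.25 in rad4 and 7.40 and 6.42 in WT before UV. The lowest TKL2 group mean among snf1, rad23 and snf1rad23 is 7.41, in rad23 at 30 min, and the highest among mig3, rad4 and WT is 4.10, in mig3 at 30 min.

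Whether a deletion changed the UV response itself was tested as the difference between the response of the deletion strain and that of WT. Such a difference also holds any difference between unirradiated levels. The clearest was in snf1Δ at 60 min, where 18 members responded lower than in WT and none higher, with 9.52% of all probe sets lower and 11.6% higher, and a member median of -1.31 against 0.06 over all. NQM1 differed by -1.55 ± 0.25 (adjusted p = 0.000154), YGP1 by -1.19 ± 0.22 (adjusted p = 0.000786), PHM7 by -3.63 ± 0.69 (adjusted p = 0.000833) and ALD3 by -2.47 ± 0.48 (adjusted p = 0.000951). MOH1 at -3.54 ± 0.69 (adjusted p = 0.00101), GCY1 at -2.57 ± 0.52 (adjusted p = 0.00143) and PRB1 at -1.52 ± 0.36 (adjusted p = 0.00399) complete the 7 that held throughout. XBP1 differed by -3.70 ± 1.09 (adjusted p = 0.0174), a call lost with array weights. The 18 were 8 without replicate 2 of unirradiated WT, 10 without replicate 2 of WT or of snf1Δ at 60 min, and 10 with array weights.

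In rad4Δ at 60 min, 12 members responded higher than in WT and 1 lower, where 8.51% of all were higher and 9.07% lower. YNL194C differed by 7.15 ± 1.16 (adjusted p = 0.000217), TMA10 by 3.61 ± 0.64 (adjusted p = 0.000505) and USV1 by 2.49 ± 0.48 (adjusted p = 0.00118), and these 3 held throughout. The size for YNL194C is uncertain, given its low level in unirradiated rad4Δ. YGP1 differed by -0.83 ± 0.22 (adjusted p = 0.0127), lost with array weights. The 13 were 4 with array weights or without replicate 2 of rad4Δ at 60 min, 5 without replicate 1 of unirradiated rad4Δ, 6 without replicate 1 of WT at 60 min or with the arrays of both strains alone, and 7 without replicate 1 of unirradiated WT.

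In snf1Δ rad23Δ at 30 min, 9 members responded higher and none lower, where 1.99% of all were higher and 1.17% lower. NQM1 differed by 1.87 ± 0.25 (adjusted p = 5.28e-05), PHM7 by 4.17 ± 0.69 (adjusted p = 0.00106) and SIP18 by 4.05 ± 0.75 (adjusted p = 0.00345), and these held throughout. PHM7 was near background in WT at 30 min, so its difference is a limit. The 9 were 5 without replicate 1 of unirradiated WT or replicate 2 of WT at 30 min, and 4 without replicate 2 of snf1Δ rad23Δ at 30 min. At 60 min 4 were higher and 2 lower, where 11% of all were higher and 8.74% lower. SPG4 differed by 4.01 ± 0.82 (adjusted p = 0.00182) and MOH1 by -2.49 ± 0.69 (adjusted p = 0.0146), both lost with array weights, which left none. The 6 were 2 without replicate 1 of unirradiated snf1Δ rad23Δ or with the arrays of both strains alone, and 10 without replicate 2 of WT at 60 min.

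In rad23Δ at 60 min, 7 responded lower and none higher, where 5.56% of all were lower and 8.61% higher. GCY1 read 12.41 and 12.46 in rad23Δ at 60 min and 13.11 and 13.11 before UV, and 11.81 and 12.59 in WT at 60 min and 10.35 and 10.23 before UV. Its responses differed by -2.58 ± 0.52 (adjusted p = 0.00241), the call that held throughout. The 7 were 1 with array weights, 14 without replicate 1 of WT at 60 min, 4 without replicate 1 of unirradiated rad23Δ, 3 without replicate 1 of rad23Δ at 60 min, and 2 without replicate 2 of unirradiated WT, of unirradiated rad23Δ or of rad23Δ at 60 min.

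The remaining response differences were few. USV1 responded lower at 30 min in snf1Δ, by -1.86 ± 0.48 (adjusted p = 0.0278), and in rad23Δ, by -2.18 ± 0.48 (adjusted p = 0.0127), as the sole call in each, where 1.93% of all were lower and 2.14% higher in snf1Δ, and 1.95% lower and 1.41% higher in rad23Δ. NQM1 responded higher at 30 min in rad4Δ, by 1.28 ± 0.25 (adjusted p = 0.0124), where 0.297% of all were higher and 0.52% lower. In mig3Δ at 30 min PHM7 and YNL194C responded higher, YNL194C by 4.87 ± 1.16 (adjusted p = 0.0439), where 0.688% were higher and 0.26% lower. None of these calls held without each single array. The USV1 call in snf1Δ was lost without replicate 2 of unirradiated WT, replicate 1 of WT at 30 min or any 1 snf1Δ array, and that in rad23Δ without the same WT arrays or replicate 2 of rad23Δ at 30 min, and with the arrays of both strains alone. The NQM1 call in rad4Δ was lost without replicate 1 of unirradiated WT, replicate 2 of WT at 30 min or replicate 1 of unirradiated rad4Δ. Without replicate 1 of mig3Δ at 30 min the mig3Δ count was 15, and without any other array it was 0 or 1. None passed limma's test in mig3Δ at 15 min, where 0.0186% of all did and no member had an unadjusted p under 0.05. None passed in mig3Δ at 60 min, where 0.836% did and 9 members had such a p, and up to 6 passed without replicate 2 of WT at 60 min. None passed in snf1Δ at 15 min, where 1.86% did and 3 members had such a p, and 7 passed with array weights. Of all 5380 probe sets, 677 had an unadjusted p under 0.05 in mig3Δ at 60 min and 554 in snf1Δ at 15 min.

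From 30 to 60 min the members rose in WT and in rad4Δ. In rad4Δ 23 were higher at 60 than at 30 min and none lower, where 16.5% of all were higher and 16.5% lower. YNL194C rose by 5.39 ± 0.82 (adjusted p = 4.94e-05), DDR2 by 4.03 ± 0.39 (adjusted p = 2.59e-07) and RTN2 by 3.99 ± 0.60 (adjusted p = 4.63e-05), and 15 of the calls held throughout. The size for YNL194C is uncertain, given its low level in rad4Δ at 30 min. In WT 18 were higher and 1 lower, where 11.7% of all were higher and 16.4% lower. HXK1 rose by 2.13 ± 0.28 (adjusted p = 4.16e-05), SOL4 by 3.40 ± 0.60 (adjusted p = 0.000452), YGP1 by 1.21 ± 0.16 (adjusted p = 3.9e-05) and PHM7 by 3.94 ± 0.49 (adjusted p = 2.54e-05), the last from a level near background. These are the 4 that held throughout, and 4 is also the count with array weights. The 19 were 9 without replicate 2 and 12 without replicate 1 at 30 min, and 11 without replicate 2 at 60 min.

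In the other strains fewer members passed the test over that interval. In snf1Δ 2 were higher and 7 lower, where 12% of all were higher and 12.3% lower, and NQM1 fell by 1.54 ± 0.17 (adjusted p = 1.68e-06). The 9 were 2 to 4 without any 1 array and 25 with the snf1Δ arrays alone. In rad23Δ 2 were higher and 1 lower, where 3.55% of all were higher and 5.93% lower, none of them without any 1 array, and 16 with the rad23Δ arrays alone. In snf1Δ rad23Δ 4 were higher and 2 lower, where 8.4% were higher and 11.6% lower, but none with its own arrays alone, 1 without replicate 1 at 30 min and 2 without replicate 1 at 60 min. In mig3Δ none passed limma's test, where 0% of all did. No member had an unadjusted p under 0.05 there, where 19 of all 5380 probe sets had one. No member passed with array weights or the mig3Δ arrays alone.

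The members were far apart between strains before UV and closer at 60 min. The range of the 6 strain means had a median over members of 3.05 before UV, 2.06 at 30 min and 1.13 at 60 min. Over all tested probe sets the medians were 0.879, 0.836 and 0.918. The range at 60 min was narrower than before UV for 34 of 37 members, where this held for 47.2% of all probe sets. GCY1 had a range of 3.14 before UV and 0.426 at 60 min, UBI4 1.98 and 0.421, XBP1 7.41 and 2.88, and RTN2 7.14 and 2.44. The exceptions were TKL2, with 5.43 before UV and 6.66 at 60 min, SIP18 with 3.36 and 4.26, and GRE3 with 0.745 and 0.947. The same values were taken without the strains whose replicates lay furthest apart, and without the strain that stood lowest. Without WT and mig3Δ the medians over members were 3.04 before UV and 0.976 at 60 min, with 35 of 37 narrower. Without rad4Δ they were 2.50 and 1.01, with 33 of 37 narrower. These are descriptions of group means that carry no test.

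The order of the strains shifted as well. Before UV the highest mean was that of snf1Δ for 19 members, rad23Δ for 17 and snf1Δ rad23Δ for 1, and the lowest was that of rad4Δ for 31, WT for 5 and rad23Δ for 1. At 60 min the highest was that of rad23Δ for 21, snf1Δ rad23Δ for 13, rad4Δ for 2 and snf1Δ for 1, and the lowest was that of rad4Δ for 14, WT for 10, mig3Δ for 9, snf1Δ for 3 and rad23Δ for 1. Differences between neighbours in this order at 60 min were not tested.

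**Figure D5:**
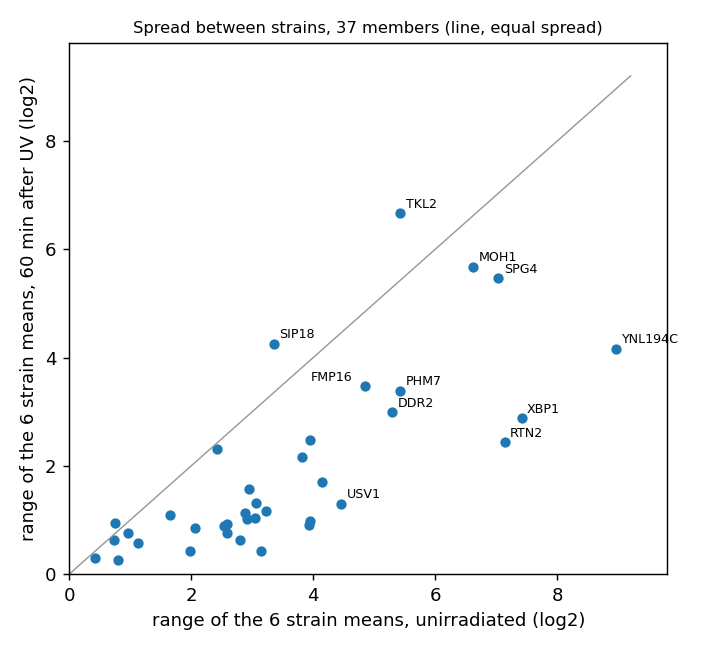
Range of the 6 strain means 60 min after UV (y axis, log2) against the range before UV (x axis, log2), 1 dot per member, with the line of equal spread. Of the 37 members 34 lie below the line, XBP1 at 7.41 and 2.88 among them, while TKL2, SIP18 and GRE3 lie above it.

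The wider stress programme at 60 min can be read beside these values. Of the 25 other environmental stress genes, 17 were higher and 1 lower in rad4Δ, 11 and 3 in snf1Δ rad23Δ, and 11 and 2 in WT. Their counts in snf1Δ, rad23Δ and mig3Δ are not given here. Over all probe sets, 26.9% were higher and 26.9% lower in rad4Δ, and 27.2% and 25.6% in snf1Δ rad23Δ. These shares were 23.8% and 19.3% in rad23Δ, and 12.1% and 18.5% in WT. Of the 20 ribosome biogenesis genes, none was higher and 14 were lower in rad4Δ (median -1.04), 13 in snf1Δ rad23Δ, 12 in rad23Δ and 16 in WT (median -0.77). In snf1Δ 5 of these 20 were higher and none lower, where 22.4% of all probe sets were higher and 21% lower. The share called higher was thus near that of all. From 30 to 60 min in snf1Δ, HSP26, HSP42, HSP78, HSP104, SSA4 and SSE2 of the 25 stress genes rose. Over that interval GSY2 and GPH1 of the same list fell, where 12% of all were higher and 12.3% lower. In rad4Δ 4 of the 26 stress signalling genes were higher and 7 lower at 60 min, where 26.9% of all were higher and 26.9% lower, so the list was called no more often than all probe sets. The 7 included MSN4, which fell by 1.17 ± 0.22 (adjusted p = 8.98e-05). They also included the Ras inhibitors IRA1, which fell by 1.80 ± 0.23 (adjusted p = 1.28e-06), and IRA2, which fell by 1.55 ± 0.14 (adjusted p = 1.54e-08). These are examples from a list called in both directions. Its other called genes, among them the 4 that were higher, are not named, and a shift of the pathway was not tested.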

How the data were processed

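The array holds 10928 probe sets, of which 5498 matched a budding yeast gene through the platform annotation and the RefSeq R64 gene table, used for names and neighbours only. The deposited log2 values were made by the authors with GCRMA 2.10.0 in R 2.6.2, per the submitters' processing notes; this background-corrects by probe sequence, normalizes arrays to 1 distribution and summarises probes, which can draw apart values near background. Values ran from 1.62 to 15.96. Probe sets of other organisms gave a 95th percentile of 2.12 to 2.19, taken as background.

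Tests were limited to the 5380 probe sets with a value of at least 4 on 2 or more arrays, leaving out 118 dim ones. Group means of all 41 arrays were estimated together with limma 3.58.1 (lmFit, eBayes) under R 4.3.3. The residual degrees of freedom were 20, and those of the prior 2.86. For mig3Δ at 15 min, with its lone array, the spread of the other groups was assumed. The 41 comparisons were 8 between unirradiated strains, 15 UV responses, 12 differences of a response from that of WT, and 6 of 60 against 30 min. P-values were two-sided and adjusted by Benjamini-Hochberg over the 5380, with calls under 0.05. The fit was tested on simulated data.

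Groups came from the sample labels. The members, role groups and lists were chosen with earlier results of these data known. Any member may be named; in a comparison the text draws on the called members that rose most (up to 6) and those that fell most (up to 6), and in a role group on up to 4 with the largest change. Replicate numbers were not taken as pairs, since the labels do not say what a number marks and not every correlation of same-numbered arrays' deviations within a strain was above 0.1 (-0.35 to 0.71). Alternatives were no filter, array weights, quantile normalization, a replicate block, median centring, a robust prior fitted with an intensity trend, only the arrays of the strains compared, and leaving out each array. The spread of strain means without WT and mig3Δ, and without rad4Δ, was added after seeing the data.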

Additional observations from a re-analysis of the deposited data

Results flagged for a closer look

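These results were picked out because the difference between 2 strains' UV responses itself passed limma's test. Each also holds the difference between unirradiated levels, the comparisons share the WT arrays, and the causes were not tested. In snf1Δ at 60 min 18 members responded lower than in WT, XBP1 among them at -3.70, and at 30 min 1 did, USV1 at -1.86. In rad23Δ 1 member, USV1 at -2.18, responded lower at 30 min and 7 at 60 min, GCY1 among them at -2.58. In snf1Δ rad23Δ 9 members differed at 30 min, YNL194C at 5.25 among them, and 6 at 60 min, SPG4 at 4.01 and MOH1 at -2.49 among them. In rad4Δ 1 member, NQM1 at 1.28, differed at 30 min and 13 at 60 min, YNL194C at 7.15 and YGP1 at -0.83 among them. In mig3Δ 2 members differed at 30 min, YNL194C at 4.87 among them. Array weights or a left-out array change most of these counts, as given in the report.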

How the results depend on the processing

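No direction of a named call reversed under the alternatives run, and the count of members called stayed within 1.5 times in every setting for 8 of 41 comparisons. Of the 41 member medians 28 moved by less than the spread of the members' medians between replicate arrays (0.249). With 2 arrays a group, the spread between arrays limits all counts; the cause of each change was not tested. The numbers of members called were as follows. For array weights, the compared strains' arrays alone and left-out arrays, the share of all probe sets called is not given here. Unirradiated, mig3Δ against WT gave 12 with array weights, 2 with the compared strains' arrays alone and 3 to 5 with 1 array left out; snf1Δ rad23Δ against WT gave 11 to 18 with 1 array left out; rad4Δ against WT gave 22 with weights and 6 to 10. The double deletion gave 26 with weights, 29 with its strains alone and 5 to 17 against snf1Δ, and 8 to 16 against rad23Δ.

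After UV, WT gave 5 with weights, 1 alone and 0 to 1 at 15 min, 17 with weights and 5 to 7 at 30 min, and 4 with weights, 10 alone and 11 to 20 at 60 min. In mig3Δ there were 2 with weights at 15 min, 1 with weights, 0 alone and 1 to 24 at 30 min, and 1 with weights, 0 alone and 1 to 4 at 60 min. In snf1Δ there were 25, 26 and 1 to 1 at 15 min, 32, 32 and 1 to 4 at 30 min, and 30, 30 and 8 to 12 at 60 min, in the same order. In rad23Δ there were 14 with weights and 20 alone at 30 min, and 11, 15 and 1 to 3 at 60 min. Left-out arrays gave 5 to 11 in snf1Δ rad23Δ and 10 to 14 in rad4Δ at 30 min.

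For response differences, mig3Δ at 30 min gave 1 with quantile normalization, 1 with weights, 0 alone and 0 to 15, and at 60 min 1 with median centring, with an intensity trend and with the replicate block, and 0 to 6. In snf1Δ weights gave 7 at 15 min, 11 at 30 min (2 alone, 0 to 1) and 10 at 60 min (8 to 24). In rad23Δ at 30 min there were 2 with quantile normalization, 6 with weights, 3 alone and 0 to 1, and at 60 min 1 with weights and 2 to 14. The double deletion gave 4 to 9 at 30 min, and 0 with weights, 2 alone and 2 to 10 at 60 min. In rad4Δ there were 7 with weights and 0 to 1 at 30 min, and 4 with weights, 6 alone and 4 to 16 at 60 min. From 30 to 60 min WT gave 4 with weights and 9 to 22, snf1Δ 22, 25 alone and 2 to 4, rad23Δ 10, 16 alone and 0 to 0, and snf1Δ rad23Δ 3, 0 alone and 1 to 5.

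The replicate block moved no other count past 1.5 times; replicate numbers were not taken as pairs, since the labels do not say what a number marks and the correlation was above 0.1 in 18, not all, of 24 same-strain pairs of groups (median 0.226) and in 46 of 166 pairs of different strains (median 0.00933). That same-strain arrays often deviated together by number is a hint from the data only. Scaling moved the split over all probe sets, higher and lower, by over 10 percentage points in 13 comparisons, where the median of all probe sets moved by at most 0.0992. With quantile normalization it was 816 and 806 (652 and 995 as reported) in WT at 60 min, 80 and 77 (71 and 247) in WT at 15 min, 16 and 17 (14 and 26) in mig3Δ at 15 min, 277 and 254 (205 and 326) in snf1Δ at 15 min, 215 and 170 (176 and 271) in unirradiated mig3Δ, and 633 and 519 (507 and 626) for snf1Δ rad23Δ against snf1Δ. For response differences it was 0 and 0 (1 and 0) for mig3Δ at 15 min, 11 and 11 (37 and 14) at 30 min and 14 and 18 (29 and 16) at 60 min, 371 and 412 (463 and 299) for rad23Δ at 60 min, and 86 and 79 (107 and 63) for snf1Δ rad23Δ at 30 min. With median centring it was 826 and 799 in WT at 60 min, 94 and 149 in WT at 15 min, 237 and 189 in unirradiated mig3Δ, 19 and 21 for mig3Δ at 60 min, 41 and 26 (76 and 24) for snf1Δ at 15 min, and 16 and 16 (16 and 28) for rad4Δ at 30 min, the last 3 as response differences.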
